A study of Homo sapiens with 4 samples.

Results

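The regions described here are 747 promoter sites of open chromatin that were listed early among the FAIRE sites of adrenocortical cells overexpressing SF-1 and that had no counterpart in the list of cells with basal SF-1. They were chosen by measured values. A site of the overexpression list on chromosomes 1 to 22 or X qualified when it shared no base with any basal site, when its deposited peak number was at most 15609 of 31219, and when its centre lay within 1 kb of the transcription start of a protein-coding gene. Of 31201 sites on these chromosomes, 12572 (40.3%) had no basal overlap, 3517 of those were in the earlier part of the list, and 747 of those were at promoters. They made up 11.1% of the 6747 early promoter sites of the list and lay nearest to a start of 732 genes, or 3.71% of 19756 protein-coding genes. The comparison sets used throughout were 6000 early promoter sites that overlapped a basal site (early shared), 1391 overexpression-only promoter sites with higher peak numbers (later overexpression-only), and 521 early promoter sites of the basal list without an overexpression site (early basal-only).

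The cells were H295R/TR SF-1, which derive from the human adrenocortical tumour line H295R and raise their level of SF-1 (NR5A1) when doxycycline is added. Chromatin was analysed in cells with basal SF-1 expression and in cells that overexpressed SF-1 after 3 days of doxycycline, with 1 FAIRE library and 1 input DNA sample in each condition, and only the 2 lists of FAIRE sites were analysed here. The cells are a single clonal line, and no untransfected line treated with doxycycline is among the 4 samples. Each list came from 1 library of unknown depth, so that no test between conditions exists, intervals cover counting error only, and a site missing from the basal list was not called there, which does not show that the promoter was closed.

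FAIRE recovers DNA that is not held by nucleosomes after formaldehyde fixation, and active promoters are among the regions it recovers best, because the transcription machinery keeps the start site free of nucleosomes. Most promoters of widely expressed genes lie in CpG islands, GC-rich stretches that hold GC boxes bound by SP and KLF factors and CCAAT boxes bound by NF-Y. SF-1 is a nuclear receptor that binds DNA as a monomer at a site with the core CAAGGTCA or CAAGGCCA, and is needed for adrenal development and for the transcription of steroidogenic genes in the adrenal cortex.

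The sequences of 6 sites are shown because they carry the motif searched for SF-1 and lie wholly outside annotated exons. They were the 6 with the lowest peak numbers of 17 such sites of at most 300 bp. All are given on the plus strand of GRCh37, with the SF-1 motif, read on either strand, in capitals. The sites were at chr20:13766001-13766299 (NDUFAF5, an assembly factor of respiratory complex I), chr9:129567551-129567849 (ZBTB43, a zinc finger protein), chr3:110789351-110789599 (NECTIN3, a cell adhesion molecule), chr17:25937301-25937549 (KSR1, a scaffold of the RAF and MEK kinases), chr14:20800551-20800799 (CCNB1IP1, a ubiquitin ligase that acts on cyclin B) and chr6:43740501-43740749 (VEGFA, the main growth factor of blood vessels).
NDUFAF5: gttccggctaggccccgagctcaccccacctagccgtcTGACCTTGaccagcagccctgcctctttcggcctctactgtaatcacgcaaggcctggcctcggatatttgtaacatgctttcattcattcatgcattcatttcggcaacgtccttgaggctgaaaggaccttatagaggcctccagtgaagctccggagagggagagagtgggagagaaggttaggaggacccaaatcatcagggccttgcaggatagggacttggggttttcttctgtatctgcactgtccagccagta
ZBTB43: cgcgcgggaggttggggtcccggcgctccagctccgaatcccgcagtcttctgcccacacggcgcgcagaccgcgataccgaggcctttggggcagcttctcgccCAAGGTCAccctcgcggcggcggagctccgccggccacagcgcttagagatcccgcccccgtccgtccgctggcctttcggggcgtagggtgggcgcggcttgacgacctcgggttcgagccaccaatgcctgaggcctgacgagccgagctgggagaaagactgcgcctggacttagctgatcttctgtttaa
NECTIN3: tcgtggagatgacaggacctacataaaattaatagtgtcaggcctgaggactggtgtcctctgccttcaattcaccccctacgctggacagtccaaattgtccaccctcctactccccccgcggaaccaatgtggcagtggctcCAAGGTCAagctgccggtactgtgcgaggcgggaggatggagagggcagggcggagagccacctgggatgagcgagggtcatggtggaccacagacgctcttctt
KSR1: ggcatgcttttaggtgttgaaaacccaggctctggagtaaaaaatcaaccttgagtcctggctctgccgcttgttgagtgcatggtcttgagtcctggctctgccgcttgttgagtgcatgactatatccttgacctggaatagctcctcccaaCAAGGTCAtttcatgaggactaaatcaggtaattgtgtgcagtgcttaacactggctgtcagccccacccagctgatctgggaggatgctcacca
CCNB1IP1: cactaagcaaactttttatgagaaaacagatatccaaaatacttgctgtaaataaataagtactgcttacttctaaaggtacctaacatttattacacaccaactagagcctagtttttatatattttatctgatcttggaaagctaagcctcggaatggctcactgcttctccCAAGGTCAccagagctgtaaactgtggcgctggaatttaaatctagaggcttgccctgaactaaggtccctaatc
VEGFA: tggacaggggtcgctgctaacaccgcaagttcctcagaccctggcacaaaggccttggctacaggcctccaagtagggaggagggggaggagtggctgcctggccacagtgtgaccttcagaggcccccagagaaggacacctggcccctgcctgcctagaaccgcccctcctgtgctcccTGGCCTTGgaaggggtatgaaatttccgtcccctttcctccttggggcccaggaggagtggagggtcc

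All 6 sites were centred in an intron downstream of the nearest start, between 271 bp at KSR1 and 896 bp at VEGFA. The motif read CAAGGTCA at NDUFAF5, ZBTB43, NECTIN3, KSR1 and CCNB1IP1, and CAAGGCCA at VEGFA. The nearest basal site was 251 bp away at NDUFAF5, 151 bp away at ZBTB43 and 451 bp away at NECTIN3, whereas it was 1651 bp, 4701 bp and 1801 bp away at KSR1, CCNB1IP1 and VEGFA.

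Peak numbers of the 747 sites ran from 1224 to 15590 with a median of 11108, against a median of 4794 for early shared promoter sites. Every comparison with early shared sites thus also sets higher against lower peak numbers. The share of promoter sites that lacked a basal overlap was 0.831% in the first 10% of the list (18 of 2167 sites), 5.08% in the next 10%, then 12.7% and 24.0%, and 31.4% in the last 10% below the limit (267 of 850 sites). These shares use the values that chose the sites and are a description. Widths ran from 149 to 749 bp with a median of 249 bp, against 349 bp for early shared promoter sites. The median width was 299 bp for the 162 sites in the first 25% of the list and 249 bp for the other 585. The last sites inside the limit were at GAB1 (peak number 15563), C3orf33 (15565) and SLC41A2 (15590), and the first promoter sites outside it were at INKA1 (15611), ZNF45 (15630) and TMEM268 (15658).

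To describe where the sites lay with respect to the start, the signed distance from the site centre to the nearest start was taken. The median centre was at -34 bp, with quartiles at -105 and 20 bp, against -66 bp for early shared promoter sites. The start itself lay inside 488 sites (65.3%, exact Clopper-Pearson 95% interval 61.8 to 68.7%), compared with 85.5% of early shared, 45.9% of later overexpression-only and 56.8% of early basal-only sites. The centre was upstream of the start in 506 sites (67.7%, 64.3 to 71.1%), which was lower than the 82.8% of early shared sites by a difference of -15.1 points (Newcombe 95% interval -18.6 to -11.7) and was not separated from the 72.2% of early basal-only sites (difference -4.43 points, -9.46 to 0.725). The centre was within 100 bp of the start in 55.4% of the sites and within 250 bp in 72.3%, against 60.6 and 88.4% of early shared sites (differences -5.19 points, -8.98 to -1.45, and -16.1 points, -19.5 to -12.9). Within 500 bp it was 84.6%. Distance up to 1 kb was part of the choice, so only the spread inside that window is informative.

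**Figure D1:**
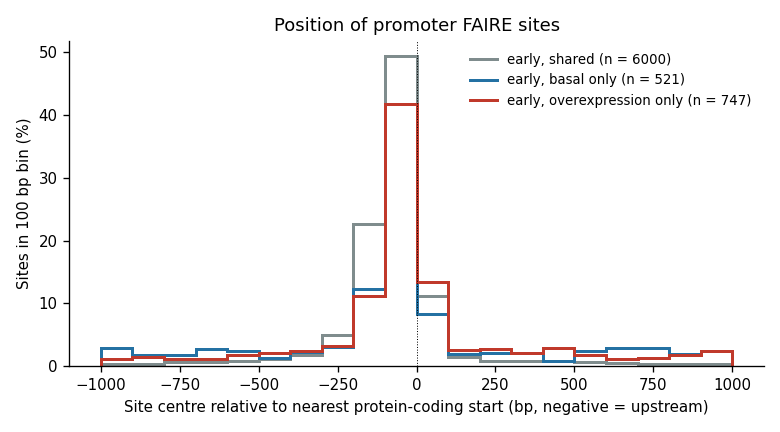
Position of the site centre relative to the nearest protein-coding transcription start, in bp with negative values upstream, as the percentage of sites in bins of 100 bp, for the 747 early overexpression-only promoter sites and for the early shared and early basal-only sets. Early overexpression-only sites (median -34 bp) were more often centred past the start than early shared sites (median -66 bp) and were spread more widely round it, with 72.3 against 88.4% of centres within 250 bp, and each bin beyond 200 bp on either side held a few percent of them.

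In the protein-coding annotation, 263 centres (35.2%) were outside any gene, 240 (32.1%) in introns, 206 (27.6%) in untranslated exons and 38 (5.09%) in coding exons. Among early shared sites 49.4% were outside genes and 1.87% in coding exons, and the difference of 3.22 points for coding exons had an interval of 1.81 to 5.07. A start of another gene on the opposite strand lay within 1 kb of 80 sites (10.7%), compared with 15.5% of early shared sites (difference -4.81 points, -7.03 to -2.23).

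The sites without basal overlap were next examined for basal sites close by. A basal site lay within 1 kb of 169 of the 747 sites (22.6%, 19.7 to 25.8%), within 500 bp of 116 (15.5%) and within 100 bp of 5. Of these 169 nearest basal sites, 79.9% were themselves shared with the overexpression list and the other 34 were basal-only. By contrast, 390 sites (52.2%) had no basal site within 10 kb and 36 (4.82%) had none within 100 kb. Later overexpression-only promoter sites had a basal site within 1 kb more often, in 29.6% (difference -7.0 points, -10.8 to -3.08). The corresponding share of early basal-only sites with an overexpression site in reach was 25.3%, and the difference of -2.71 points had an interval of -7.55 to 2.02.

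**Figure D2:**
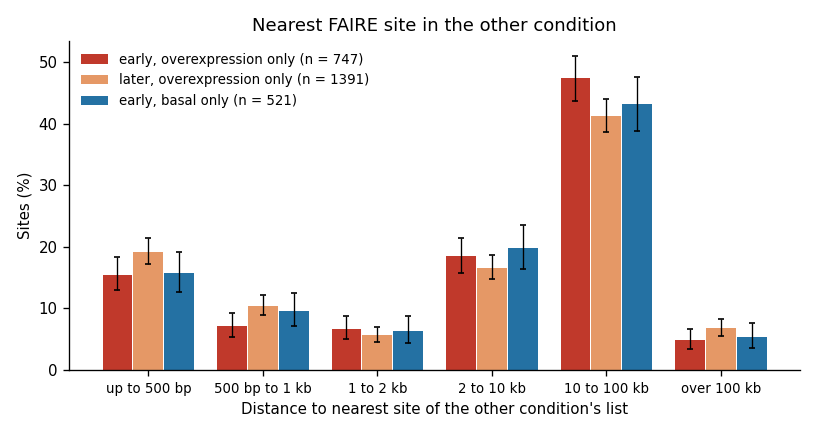
Distance from each condition-only promoter site to the nearest site in the list of the other condition, as the percentage of sites per distance class with exact 95% intervals as error bars. The 10 to 100 kb class was the most common in all 3 sets (47.4% of early overexpression-only sites), and 15.5% of these sites had a basal site within 500 bp.

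A shared site was found within 2 kb of 173 sites (23.2%, 20.2 to 26.4%). The share was 28.4% for later overexpression-only, 26.3% for early basal-only and 17.9% for early shared sites, each counted without the site itself. At the level of the gene, 252 of 732 genes (34.4%, 31.0 to 38.0%) had a basal site centred within 1 kb of at least 1 of their annotated starts. The remaining genes had none in that window and are called genes without a basal promoter site, although a basal site could lie just outside it. This share was 41.1% for the 1327 genes of later overexpression-only sites. No other overexpression site was centred within 10 kb of 361 sites (48.3%).

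The 169 sites with a basal neighbour within 1 kb differed in position from the other 578. They covered the start in 43.2% against 71.8% (difference -28.6 points, -36.6 to -20.2) and were centred upstream of it in 52.7% against 72.1%. Windows with a GC content of at least 70% made up 28.4% of the first group and 41.3% of the second (difference -12.9 points, -20.4 to -4.72). The SF-1 motif was found in 10.1% and 6.92%, a difference of 3.14 points whose interval reached from -1.24 to 8.89.

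Base composition was taken in windows of 300 bp round the site centre, so that site width did not enter. The median GC content was 67.7% (quartiles 59.7 and 72.7%), against 65.7% in early shared, 63.0% in later overexpression-only and 61.3% in early basal-only sites. GC content reached 70% or more in 287 sites (38.4%), compared with 28.3% of early shared (difference 10.1 points, 6.51 to 13.8) and 27.6% of early basal-only sites (10.8 points, 5.52 to 15.9). At the other end, it was below 50% in 12 sites under 40% and 46 sites between 40 and 50%. CpG island composition, that is GC of at least 50% with an observed over expected CpG ratio of at least 0.6, was met by 551 sites (73.8%, 70.5 to 76.9%). This was below the 88.3% of early shared sites (difference -14.5 points, -17.9 to -11.4) and above the 58.2% of early basal-only sites (15.6 points, 10.3 to 20.8). The sites were thus both richer in very high GC and poorer in CpG island composition than early shared promoter sites. GC content is known to affect recovery and amplification of sequenced fragments, and its part in the calls of either library was not tested.

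The SF-1 motif, CAAGGTCA or CAAGGCCA on either strand, was present in 57 of the 747 windows (7.63%, 5.83 to 9.77%). It was present in 2.60% of early shared windows, a difference of 5.03 points (3.28 to 7.19), and in 2.39% of windows at the 5′ ends of 19717 protein-coding genes. These sets were not matched in position, as the start lay inside 65.3% of the sites and 85.5% of early shared sites. Among the 747, sites that covered the start held the motif in 3.28% and the others in 15.8%. The share in the flanks, 2 kb to either side of the sites, was 3.48%. Early basal-only and later overexpression-only sites, however, held it in 6.72% and 6.90%, and the difference to early basal-only sites was 0.913 points with an interval of -2.09 to 3.73. The higher share was therefore found in all 3 sets of promoter sites called in 1 condition only. The words GACATGCA and GACACGCA, which have the same letters in another order, were found in 1.20% of the sites, 0.983% of early shared and 0.576% of early basal-only sites. GACACGCA holds a CpG, which neither SF-1 word does, so these words are not matched to the motif in CpG.

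The sites with the motif were unlike the rest in position and composition. Of the 57, 12 (21.1%) had CpG island composition against 78.1% of the 690 without a motif, and 16 (28.1%) covered the start against 68.4%. Their centres had a median of 64 bp downstream of the start, and the median absolute distance was 334 bp against 76.5 bp. There were 60 matches in all, 25 of CAAGGTCA and 35 of CAAGGCCA, and 26 of them were within 50 bp of the site centre. Upstream of the start lay 27 matches.

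When the windows were divided by composition, a division made after the shares had been seen, the motif was in 12 of 551 sites with CpG island composition (2.18%) and in 45 of 196 others (23%, 17.3 to 29.5%). Among sites of other composition the share was 7.83% for early shared, 13.2% for later overexpression-only and 12.8% for early basal-only sites. The difference to early shared sites was 15.1 points (9.34 to 21.7) and that to early basal-only sites was 10.1 points (2.74 to 17.5). GC content was not matched inside this group, which takes in all windows under 50% GC. Windows under 40% GC were 12 of the 196 against 52 of 218 early basal-only sites. Those of 40 to 50% were 46 against 87. Among sites with CpG island composition the corresponding differences were 0.271 points (-0.741 to 1.90) and -0.132 points (-2.69 to 1.85). None of the 196 sites held the words in other order (exact interval up to 1.86%). GACACGCA holds a CpG, however, and windows poor in CpG fall into this group by its definition. The absence of these words is thus no measure of how specific the SF-1 motif share is.

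**Figure D3:**
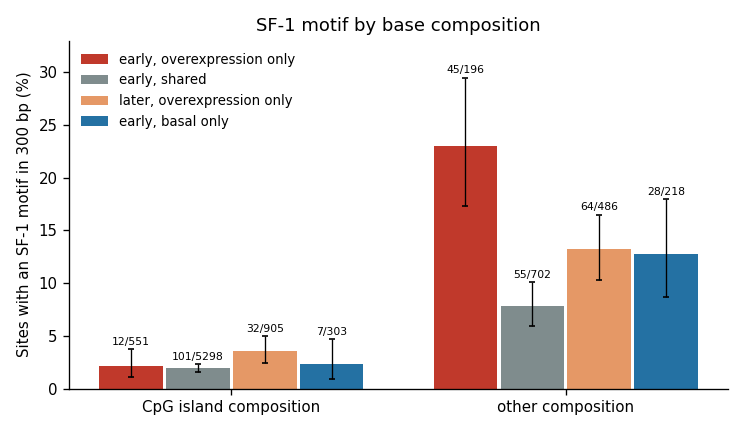
Percentage of promoter sites with an SF-1 motif in 300 bp round the centre, separately for windows with CpG island composition and for other windows, in the 4 sets of sites, with exact 95% intervals as error bars and the number of sites with a motif of all sites above them. Bars with CpG island composition lie between 1.91 and 3.54%, and among other windows early overexpression-only sites stand at 23%. GC content was not matched between the sets inside either group of windows.

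Other promoter motifs were searched in the same windows on both strands. The GC box GGGCGG was in 65.3% of the sites, 76.0% of early shared and 55.9% of early basal-only sites. CCAAT was in 27.7%, against 49.2% of early shared sites (difference -21.5 points, -24.8 to -17.9), 36.1% of early basal-only sites (-8.37 points, -13.6 to -3.17) and 33.7% of all 5′ ends. The gap to early shared sites was present in windows with CpG island composition too, with CCAAT in 24.5% against 48.4%. That to early basal-only sites had an interval across 0 both with CpG island composition (-4.87 points, -11.2 to 1.26) and without it (-8.68 points, -17.9 to 0.815). CCGGAAGT, bound by ETS factors, was in 5.22% against 9.72% of early shared sites (difference -4.50 points, -6.08 to -2.52). The cAMP response element TGACGTCA was in 2.81% against 4.10%, a difference with an interval across 0 (-1.29 points, -2.39 to 0.235). The E-box CACGTG was in 9.24% and 11.7%, with an interval that only just left out 0 (-2.45 points, -4.50 to -0.0244). TATAAA was in 5.35%, between early shared (3.70%) and early basal-only sites (11.1%), and the AP-1 words TGACTCA and TGAGTCA were in 3.08%. The CTCF motif was in 9.24% against 7.78% of early shared sites, a difference with an interval across 0 (1.45 points, -0.548 to 3.83). Motifs of NRF1, YY1 and ZBTB33 were in 1.74%, 1.74% and 0.803%. A match is a description of the sequence, and no match says only that these letters were not in the window.

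**Figure D4:**
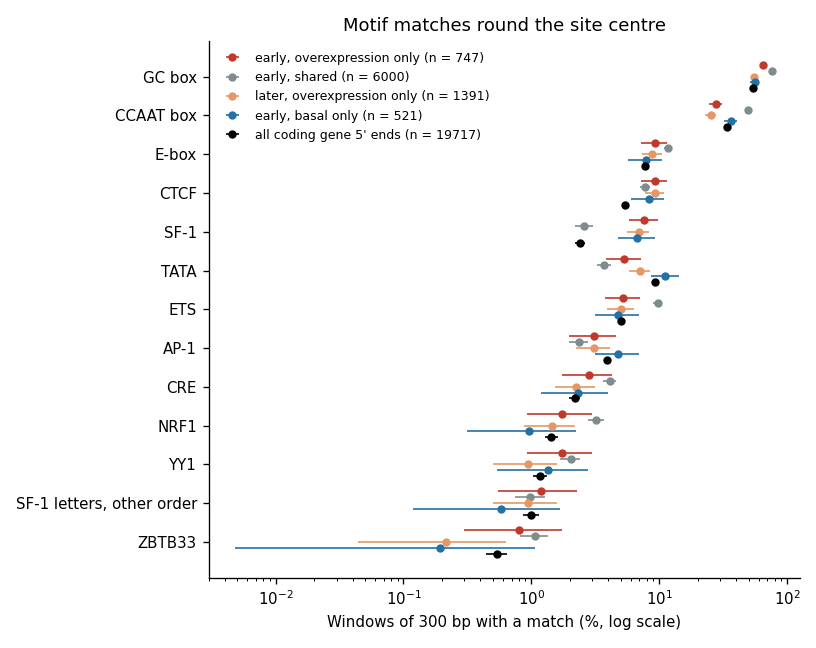
Percentage of 300 bp windows with at least 1 motif match, on a log scale, for 13 motifs in the 4 sets of promoter sites and at the 5′ ends of all protein-coding genes, with exact 95% intervals. Early overexpression-only sites lie with the other condition-only sites for SF-1 (7.63, 6.90 and 6.72%), apart from early shared sites (2.60%), and below early shared sites for CCAAT (27.7 and 49.2%) and ETS motifs (5.22 and 9.72%).

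Among the 12 sites with the lowest peak numbers were those at MAP1LC3B (1224), which encodes the autophagosome protein LC3B, RABAC1 (1291), which encodes a receptor for RAB proteins, PLAGL1 (1692), an imprinted zinc finger factor, CERCAM (1851), APC (2002), GOT2 (2437), a mitochondrial aspartate aminotransferase, ASS1 (2553), CTNNB1 (2635), DAAM2 (2650), ENSG00000288593 (2824) and FABP3 (2828). Among these, APC and CTNNB1 encode the scaffold that leads β-catenin to degradation and β-catenin itself. The APC site (chr5:112073401-112073699) was centred 32 bp upstream of a start and was 19701 bp from the nearest basal site, although another start of APC had a basal site within 1 kb. The CTNNB1 site (chr3:41240801-41241099) was centred 11 bp upstream of the start with a GC content of 72%, and a basal-only site lay 551 bp away.

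ASS1, which encodes argininosuccinate synthase of the urea cycle, had a site of 449 bp at chr9:133327201-133327649. It covered the start, held 2 copies of CAAGGCCA, 89 and 327 bp upstream of it, and was 127151 bp from the nearest basal site. FABP3, the heart-type fatty acid binding protein, had a site of 399 bp centred 527 bp upstream of the start with 1 copy of CAAGGTCA, and a basal site lay 1151 bp away. PLAGL1 and CERCAM sites were centred downstream of the start, by 605 and 830 bp, and neither had CpG island composition.

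Genes of 36 function lists and of 4 lists from expression arrays were looked up among the 732 genes. At least 1 function list held 155 of them and 577 were in none. The share of genes with a site is given beside that of all protein-coding genes, 3.71%. For early basal-only sites, the share of all protein-coding genes was 2.57%. In the list named steroid hormone synthesis, 2 of 33 genes had a site (6.06%), and 2 had an early basal-only one. The first 2 were FDX2 and CYP11A1, the cholesterol side-chain cleavage enzyme that opens steroid synthesis. FDX2 is a mitochondrial ferredoxin, counted here by its place in the list, and a part of it in steroid synthesis was not tested. The CYP11A1 site (chr15:74659901-74660149, peak number 15533) covered the annotated transcript start nearest its centre. CAAGGCCA lay 43 bp upstream of that annotated start, and the nearest basal site was 5951 bp away. Which start of the gene these cells use was not tested. The FDX2 site (peak number 8939) covered the start at a GC content of 67.7% and held no SF-1 motif. No gene of 29 in cholesterol synthesis and its control by SREBP had a site (0%, exact interval up to 11.9%), whereas 21 of them (72.4%) had an early shared promoter site, against 28.1% of all protein-coding genes.

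Of 52 genes in cholesterol uptake, storage and transport, 6 had a site (11.5%, 4.35 to 23.4%). Early basal-only sites were at 2 of the 52 (3.85%). The count of 6 genes was 2 when starts were taken from the 5′ end of each gene only and 1 in the first 25% of the list. GRAMD1B, which moves cholesterol from the plasma membrane to the endoplasmic reticulum, had the earliest (peak number 3864), centred 202 bp upstream of a start and 1451 bp from a shared site. ABCA1, the exporter of cholesterol to apolipoproteins, had a site centred 89 bp upstream of the start, 39501 bp from the nearest basal site. LIPE, the hormone-sensitive lipase that frees cholesterol from its esters, had a site centred 775 bp upstream of a start with CAAGGTCA in it and a basal site 851 bp away. The others were SCARB2, a lysosomal membrane protein, LRP1, an endocytic lipoprotein receptor, and STARD6, a lipid transfer protein, with peak numbers of 9091, 11569 and 13780.

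In ACTH receptor and cAMP signalling, 5 of 62 genes had a site (8.06%). Early basal-only sites were at more of them, 7 of 62 (11.3%). MC2R, the receptor for ACTH, had a site of 349 bp at chr18:13915451-13915799 that covered the start, at a GC content of 42.7%, 188751 bp from the nearest basal site and without an SF-1 motif in the window. PRKAR2B and PRKAR2A, both regulatory subunits of protein kinase A, had sites with peak numbers 5628 and 13921, the second of which lay 401 bp from a shared site. GNAI2, an inhibitory G protein subunit, had one centred 49 bp upstream of the start (GC content 57.3%), and PDE1C, a phosphodiesterase, had one in a coding exon. Among 51 adrenal development factors and SF-1 partners, CTNNB1, NCOA1 and NCOA2 had a site (5.88%). The last 2 encode coactivators of nuclear receptors, and their sites had CpG island composition, no SF-1 motif and their nearest basal sites at 37601 and 33751 bp.

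Wnt and β-catenin signalling held 6 of 75 genes with a site (8.0%). They were APC, CTNNB1, the coreceptor LRP6, the ligands WNT11 and WNT10B and the inhibitor DKK1. All 6 sites covered the start, all 6 had CpG island composition and none held the SF-1 motif, and 1 had a basal site within 1 kb. The shares of all 747 sites were 65.3%, 73.8%, 7.63% and 22.6%, so that few motifs and basal neighbours are usual. In this list 24.0% of the genes had an early shared promoter site and 1.33% an early basal-only one. TGF-β and BMP signalling held 4 of 56 (7.14%), of which ACVR1B and TGFBR2, receptors, and LTBP1, which holds latent TGF-β in the matrix, were the earliest. Those 4 genes had no basal promoter site, which 34.4% of all 732 genes had. Early basal-only sites were at 3 of the 56 genes (5.36%). The Notch list had none of 40 genes with a site.

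Among 47 angiogenesis factors and receptors, VEGFA, EPAS1 and HIF1A had a site (6.38%), the last 2 encoding the hypoxia-inducible factors HIF-2α and HIF-1α. VEGFA had 2 sites, 701 bp apart, of which the one with the lower peak number (7730) was centred 440 bp upstream of a start in an untranslated exon and the other was the intronic one with the motif shown above. A basal-only site lay 701 bp from the first of them. The HIF1A site had a GC content of 31.3%, the lowest of all 747.

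The cell cycle list had 6 of 80 genes (7.5%), with CHEK1, CDKN2A and CCNA2 earliest. Early basal-only sites were at 7 of the 80 (8.75%). CDKN2A encodes the inhibitors p16 and p14ARF, and its site had a basal-only site at 10901 bp as nearest neighbour, whereas those of CHEK1 and CCNA2 lay 201 and 851 bp from a shared site. In this list 66.2% of the genes had an early shared promoter site. Basic leucine zipper factors had 4 of 44 (9.09%), with CEBPD, CEBPA and ATF2 earliest. The CEBPA site, 210 bp upstream of the start, had a GC content of 80.3%, and the nearest basal site was 70551 bp away. Krüppel-like and SP factors had 2 of 27, namely KLF13 and KLF14, nuclear receptors 2 of 48, NR2C2 and NR1H2, and homeobox genes 5 of 125, with PAX9, POU2F2 and HOXA6 earliest. No forkhead or SOX gene of 64 and no circadian clock gene of 25 had a site.

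The larger families are given next, beside the 3.71% of all genes. ZNF genes had 21 of 508 (4.13%), with ZNF586, ZNF780B and ZNF579 earliest. They accounted for 22 sites, of which 20 covered the start, 20 had CpG island composition and none held the SF-1 motif. The shares of all 747 sites were 65.3%, 73.8% and 7.63%. Solute carriers had 16 of 382 (4.19%), with the zinc transporter SLC39A13, the folate transporter SLC46A1 and SLC22A4 earliest, and the SLC46A1 site carried an SF-1 motif 514 bp downstream of the start. Ubiquitin ligase genes had 15 of 250 (6.0%), with FBXO9, RNF145 and FBXO7 earliest, and tubulins, kinesins and dyneins had 7 of 100, with KIF11, KIF1A and DYNC1LI1 earliest. Voltage-gated and potassium channels had 5 of 148 (3.38%), with KCNT1 and KCNH1 earliest.

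Among genes of basic cell functions, ribosomal proteins had 4 of 84 (4.76%, RPLP1, RPS15 and RPS21 earliest), mitochondrial ribosomal proteins 5 of 78 (6.41%, MRPL36, MRPL41 and MRPS26 earliest) and respiratory chain subunits 2 of 89 (2.25%, NDUFB7 and NDUFC1). The 5 mitochondrial ribosomal sites all covered the start, as did 65.3% of all 747 sites. None of these 5 genes had a basal promoter site, which 34.4% of all 732 genes had. Chromatin-modifying enzymes had 5 of 112 (4.46%). EHMT2, a histone H3 lysine methyltransferase, DNMT3A, a DNA methyltransferase, and KMT2C, a histone methyltransferase, were the earliest. Genes of neuronal secretion and synapses had 5 of 67 (7.46%), with BSN, SYN1 and CADPS earliest. All had CpG island composition, as had 73.8% of all 747 sites. ABC and P-type ATPase transporters had 5 of 81 (6.17%), with the calcium pump ATP2A1, ABCA1 and ATP8B2 earliest. Integrins, laminins and collagens had 4 of 82, with LAMB1, COL11A1 and ITGA3 earliest, kinase signalling genes 4 of 125, with MAP3K2, MAPK7 and MAP2K6 earliest, and exchange factors and activators of small GTPases 4 of 129, with ARHGEF2, ARHGEF10 and ARHGAP4 earliest. RAB and ARF GTPases had 2 of 89, RAB43 and RAB32. The lists with 1 gene were apoptosis regulators (BAK1, of 46), antioxidant defence (MGST2, of 50), axon guidance (SEMA4B, of 70), histones (H3C6, of 90) and cadherins (CELSR2, of 104).

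**Figure D5:**
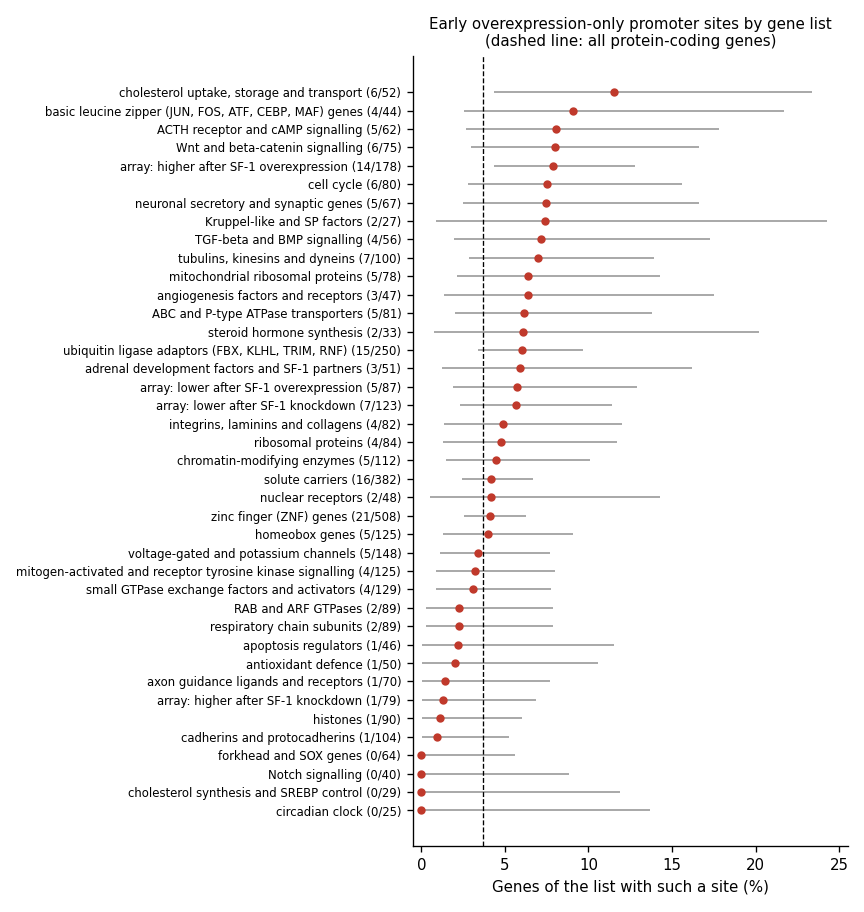
Percentage of the genes of each list that had an early overexpression-only promoter site, with exact 95% intervals and the number of genes with a site of all genes of the list in parentheses, for 36 function lists and 4 lists from expression arrays. The dashed line marks the 3.71% of all protein-coding genes, and the lists range from 0% to 11.5%.

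Genes listed by the study from expression arrays of the same cell line were then examined. Those samples are other samples than the FAIRE libraries. Of 178 genes higher after SF-1 overexpression, 14 had a site (7.87%, 4.37 to 12.8%), compared with 3.71% of all protein-coding genes. Among genes with any promoter site in either list the shares were 17.3 and 7.93%. Of the 178, 23% had an early shared promoter site and 3.37% an early basal-only one, against 28.1 and 2.57% of all genes. The 14 genes, in order of peak number, were DAAM2, a formin of Wnt signalling, CCM2L, GRAMD1B, PTPN7, a tyrosine phosphatase, RIN2, an exchange factor of RAB5, TMEM200A, ANKRD18A, NECTIN3, KLF13, COL11A1, a collagen, EPAS1, SFXN3, a mitochondrial carrier, PJA1, a ubiquitin ligase, and TUBB2A, a tubulin. Their 15 sites covered the start in 7 cases and had CpG island composition in 7. The SF-1 motif was in 3 of them, at CCM2L, PTPN7 and NECTIN3. The shares of all 747 sites were 65.3%, 73.8% and 7.63%. A basal promoter site was called at 5 of the 14 genes and at none of the other 9, beside 252 of all 732 genes (34.4%).

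Of 87 genes lower after SF-1 overexpression, 5 had a site (5.75%), namely TSPAN12, CADPS, ROR1, PHLDB2 and P3H2. Early basal-only sites were at more of them, 8 of 87 (9.20%). The 5 overexpression-only sites all had CpG island composition (73.8% of all 747 sites) and none held the SF-1 motif (7.63%). Of 123 genes lower after SF-1 knockdown, 7 had a site (5.69%). They were FABP3, TNFAIP3, an inhibitor of NF-κB signalling, CADPS, which primes secretory vesicles, MC2R, BRPF3, a subunit of histone acetyltransferase complexes, PDK1, a kinase that inhibits pyruvate dehydrogenase, and CYP11A1. The SF-1 motif was in 3 of these sites, at FABP3, BRPF3 and CYP11A1, beside 7.63% of all 747 sites. A basal promoter site was absent at 6 of the 7 genes and present at 1, beside 34.4% of all 732 genes with one. Of 79 genes higher after knockdown, 1 had a site, PHLDB2 (1.27%). Early basal-only sites were at 9 of the 123 genes (7.32%) and at 4 of the 79 (5.06%).

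The motifs at genes of the array lists, of steroid synthesis and of cholesterol transport are shown in stretches of 30 bases, picked after the values were seen, because these genes are on the array lists or act in steroid and cholesterol handling. Each is written on the strand on which the motif reads as CAAGGTCA or CAAGGCCA, in capitals, from GRCh37. In order, they lie at chr1:31846547-31846576 (minus strand), chr20:30597881-30597910 (plus), chr20:30597894-30597923 (plus), chr1:202130079-202130108 (minus), chr3:110789484-110789513 (plus), chr19:42929125-42929154 (minus), chr6:36172387-36172416 (minus) and chr15:74660016-74660045 (plus).
FABP3: caggcagaggaCAAGGTCAgctcagccgca
CCM2L: acttgccttgcCAAGGTCAcacaacaaggt
CCM2L: aggtcacacaaCAAGGTCAgtggcagaagt
PTPN7: aagcctccggcCAAGGTCAggttgagcagg
NECTIN3: ggcagtggctcCAAGGTCAagctgccggta
LIPE: aaggtctcaggCAAGGTCAgggactgacgg
BRPF3: gaagtgaaagaCAAGGTCAgtgggcagccc
CYP11A1: aactaccagctCAAGGCCAtaccagaagct

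CCM2L, a paralogue of the cerebral cavernous malformation protein CCM2, had both of its matches on the plus strand and in 1 site of 599 bp, 333 and 346 bp upstream of the start. This site was 57651 bp from the nearest basal site. The match at PTPN7 was 321 bp upstream of the start and that at LIPE 864 bp upstream, while those at NECTIN3 and BRPF3 were 536 and 210 bp downstream.

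Each of 15 genes had 2 sites. They were VEGFA, NUB1, RIN2, NCKAP5L, SPTAN1, RHOF, ZNF641, PTOV1, PTBP3, NAT14, IFFO1, BLOC1S1, ZBTB17, TSKU and CCDC69. In 12 of these genes the sites were nearest to different starts, and the bases between them ran from 51 at PTBP3 to 42051 at SPTAN1, with up to 1 kb in 9 genes. The sites of 1 gene are not independent.

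By chromosome, the share of early promoter sites without basal overlap ran from 7.77% on chromosome 19 (52 of 669, 5.86 to 10.1%) to 14.0% on chromosome 10 (33 of 236, 9.82 to 19.1%), around the 11.1% of all chromosomes. Besides chromosome 19, the interval of each chromosome held that share.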

How the data were processed

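Each FAIRE library had been turned by the authors into a list of peaks on hg19, with 1 line per site. The deposited score was 1000 on every line and held no peak height, and the deposited peak number ran in file order, for which the sorting quantity is not given in the sources used here. The study's methods name ELAND as the aligner of immunoprecipitated DNA, and the aligner, peak caller and threshold used for FAIRE are not given in the sources used here. The submitters' processing notes name CASAVA 1.8. Peaks were called per library, depth is unknown, and no test between conditions was possible. The 2 input DNA samples were not used here.

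Sites were compared by an overlap of at least 1 bp and assigned to the nearest start of a protein-coding transcript (GENCODE release 44 mapped to GRCh37, 78532 starts). Composition and motifs were read in windows of 300 bp. Shares have exact (Clopper-Pearson) and differences Newcombe 95% intervals (Python 3.11.15, SciPy 1.17.1, pandas 2.3.3, pysam 0.24.0), which take in the counting error alone. The search, overlap and interval code was tested on simulated data. The regions, gene lists and motifs were chosen with earlier results of these data known. Array lists gave gene names only, matched with RefSeq synonyms. Genes named were the 12 earliest, all in the steroid, cholesterol, cAMP, adrenal and array lists, the 3 earliest of other lists, the 3 nearest either side of the peak-number limit and genes with 2 sites, and some that these rules name are not reported here.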

Additional observations from a re-analysis of the deposited data

How the results depend on the processing

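The results were recomputed under stricter or wider definitions of shared, early and promoter sites, and 76 of 107 recomputed values counted as kept. Differences were kept if their direction and side of the threshold held, and shares if they stayed within the main interval. Counts were kept if they changed by no more than a fixed factor, a loose rule under which 559 sites against 747 passed. The number of sites was 162 when only the first 25% of the list counted as early, and the share centred upstream was then 72.2% and the number of genes higher after SF-1 overexpression 5. In the same part of the list, 2 genes of ACTH receptor and cAMP signalling and 3 of Wnt and β-catenin signalling had a site. With starts taken from the 5′ end of each gene only, these were 59.2% and 8 genes, and CpG island composition was met by 82.5%. With the centre within 500 bp, 71.8% were upstream, 82.1% had CpG island composition and 19.8% had a shared site within 2 kb. When a basal site within 500 bp also counted as shared, 71.2% were upstream and 11.4% had a shared site within 2 kb, as the construction of that alternative removes sites with close neighbours.

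The SF-1 motif difference to early shared sites kept its sign and its interval above 0 under the 7 other definitions and windows, between 2.74 and 6.10 points. That to early basal-only sites had an interval across 0 throughout and turned to -0.227, -0.0410 and -0.147 points with a basal site within 500 bp as shared, with gene 5′ ends only and with the wider part of the list as early. In the division by composition, chosen after seeing the data, the differences were 0.271 (early shared) and -0.132 (early basal-only) points within CpG island composition and 15.1 and 10.1 points outside it, and the GC box difference to early basal-only sites was -3.30 points within CpG island composition. The division did not match GC content inside its groups, and the cause of these changes was not tested.

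Leaving out a replicate was not possible with 1 library per condition. No paired analysis was possible because the groups hold 1 library each. The lists hold neither counts nor heights, so the depth of each library and the distance of a site from the calling threshold are unknown.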

Other observations

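Some further sites with an SF-1 motif are given here, chosen after their values were seen. AMHR2, the receptor for anti-Müllerian hormone, had a site of 449 bp centred 475 bp downstream of the start in an untranslated exon, with CAAGGCCA 393 bp downstream of the start and the nearest basal site 3501 bp away. HDAC5, a histone deacetylase, had a match 85 bp upstream of the start at a GC content of 69.0%. AKT2, a kinase of insulin signalling, and BAK1, a pore-forming protein of apoptosis, had matches 950 and 522 bp downstream, with shared sites 1401 and 301 bp away.

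The share of sites with the motif was 8.64% among the 162 sites in the first 25% of the list and 7.35% among the other 585, a difference of 1.29 points with a Newcombe interval of -2.89 to 6.94. CpG island composition was met by 74.1 and 73.7% of them. Sites that covered the start held the motif in 3.28% and those that did not in 15.8% (difference -12.6 points, -17.6 to -8.14).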
